A study of Mus musculus with 6 samples.

Results

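The 10 genes described here are the hair placode, Wnt, Eda and Hedgehog genes Shh, Ptch1, Gli1, Gli2, Lhx2, Sox9, Edar, Dkk4, Wnt10b and Lef1. They were taken by symbol from the 55536 Ensembl genes of a table of raw read counts, and all 10 were among the 20622 genes with enough reads to be tested. Bulk RNA-seq was performed on basal epidermal cells, sorted from mouse dorsal skin at E16.5 (embryonic stage) as Epcam+ and α6+ (α6 integrin, Cd49f). There were 3 control (Ctrl) and 3 triple knockout (TKO) libraries. Both groups carried Suv39h1 f/f, Suv39h2-/- and Setdb1 f/f, and both received tamoxifen. TKO embryos carried the K14CreERT2 transgene and Ctrl embryos did not. The transgene drives a tamoxifen-inducible Cre recombinase from the keratin 14 promoter, which is active in basal keratinocytes. The study describes recombination in these embryos as mosaic. Controls without Cre came from the same litters as TKO embryos, and which library came from which litter is not given in the sources used here. Loss of Suv39h2 was therefore shared by both groups, and the comparison was between embryos with and without induced deletion of Suv39h1 and Setdb1, genes for methyltransferases that place the repressive histone mark H3K9me3. By their labels, 4 libraries were male, and Ctrl replicate 1 and TKO replicate 2 female.

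Hair follicles begin as placodes, local thickenings of the embryonic epidermis. Wnt signaling acts first and stabilizes β-catenin, which binds Lef1 and related factors on DNA, and Eda signaling through its receptor Edar and NF-kB refines and maintains the placodes. Placode cells then secrete Shh, which binds Ptch1, relieves the inhibition of Smo and activates the Gli factors in the epithelium and in the dermal cells below. Ptch1 and Gli1 are themselves targets of the pathway and are commonly used as its readouts. Lhx2 and Sox9 are transcription factors of follicle progenitors, and Dkk4 is a secreted Wnt inhibitor made by placodes.

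Levels are given in CPM, the count of a gene scaled to a common library total after TMM normalization, a correction for differences in composition. Totals were 102159175, 136515436 and 104422632 counts for Ctrl replicates 1 to 3 and 116308383, 108957256 and 118413082 for TKO replicates 1 to 3. The lowest count of any of the 10 genes in any library was 1351, for Dkk4 in Ctrl 3, so counting error was small beside the spread between libraries. The samples are labelled as separate replicates, and p-values measure the spread between these 6 libraries.

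Among the targeted genes, Setdb1 had 126, 118 and 121 CPM in Ctrl and 95.3, 62.3 and 74.9 CPM in TKO. All TKO values were below all Ctrl values, with a log2 fold change of -0.65 ± 0.161 (SE) and an edgeR adjusted p of 0.286 (Benjamini-Hochberg over all tested genes). Suv39h1 had 88.7, 78.5 and 84.0 CPM in Ctrl against 75.6, 68.9 and 89.4 CPM in TKO. Suv39h2, deleted in both groups, had 15.9, 17.1 and 15.6 CPM in Ctrl against 18.9, 16.001 and 17.5 CPM in TKO. These are counts over the whole gene and include reads from outside any deleted exons, so they do not measure the deletion itself. Exons of Suv39h2 overlap Dclre1c over 5074 bases, those of Setdb1 overlap Cers2 over 1309, and those of Suv39h1 overlap the noncoding Gm14820 over 923. All of these neighbours lie on the opposite strand. The strand setting of the counting is not known, so their reads could be included.

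The library TKO 3 stood apart from the other TKO libraries. In a chi-square comparison of counts over genes, in which sampling noise alone gives a value near 1 per degree of freedom, TKO 1 and TKO 2 differed by 90.3 and the Ctrl libraries by 203 to 219. TKO 3 differed from TKO 1 by 434 and from TKO 2 by 359, while its distance to Ctrl 3 was 137. The 3 most abundant genes took 6.61% of the counts of TKO 3 and between 9.52% and 13.2% of the others, and genes matched to the annotation took 94.1% of TKO 3 and between 86.4% and 90.9% of the others. Each value for the 10 genes is therefore given with and without TKO 3.

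None of the 10 genes passed the test between TKO and Ctrl. The test was edgeR's quasi-likelihood test, and a gene was called at a Benjamini-Hochberg adjusted p under 0.05 with an absolute log2 fold change above 1. Across all tested genes 27 were called higher, 0.131%, and 0 lower, 0%. DESeq2 called 0 of the 10 genes as well, against 214 of all 20622 tested genes (193 higher, 21 lower). At an unadjusted p under 0.05, edgeR gave 1 of the 10 as higher (Dkk4) and 0 as lower, against 4.06% of all tested genes higher and 2.02% lower. Dkk4 and Lef1 had all 3 TKO libraries above all 3 Ctrl libraries, 2 of 10 genes against 6.35% of all tested genes, and none had all TKO below all Ctrl, against 5.11%. The log2 fold changes of the 10 ran from -0.05 to 0.44 with a median of 0.09, and 8 were above 0 and 2 below. The median over all tested genes was 0.01. In a sorted bulk sample, fewer cells of a type and less RNA per cell cannot be told apart.

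**Figure D1:**
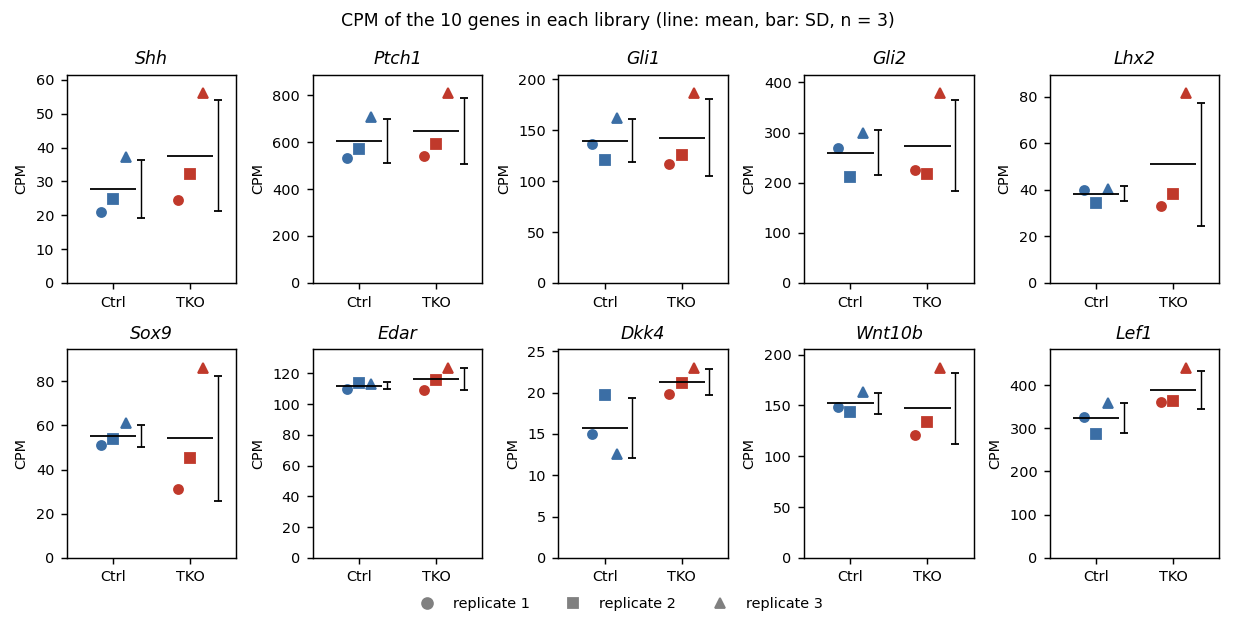
CPM of each of the 10 genes (vertical axes, each from 0) in the 3 Ctrl (blue) and 3 TKO (red) libraries, with marker shape for the replicate, a line at the group mean and a bar of 1 SD (n = 3). TKO replicate 3 is the highest point in all 10 panels, and only Dkk4 and Lef1 have groups that do not overlap.

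The promoters of the 10 genes were searched where the reference held them, since the Gli and Tcf/Lef factors act on target promoters. Sequences are printed for Ptch1 and Edar, the receptors of the Hedgehog and Eda pathways, and for 1 entry of Lef1. RefSeq (GRCm38.p6) had promoter entries for 6 of the 10 genes, 10 entries in all, and the 250 bases before each start were searched on both strands. Shh, Gli1, Sox9 and Dkk4 had no entry. The Gli motif TGGGTGGTC was in none of the 10 entries and in 74 of 32851 promoters of the same length, 0.225%. The Tcf/Lef motif CTTTGAT was in 1 of the 10, that of Edar, and in 1053 of 32851 promoters, 3.21%. A match to these letters is a description and not a shown binding site. The Edar promoter (minus strand, chr10:58675697-58675946), with the CTTTGAT match in capitals at position -233 counted from the start, the Ptch1 promoter (minus strand, chr13:63565736-63565985) and the first of the 4 Lef1 entries (plus strand, chr3:131110047-131110296) read 5′ to 3′ as follows.
Edar: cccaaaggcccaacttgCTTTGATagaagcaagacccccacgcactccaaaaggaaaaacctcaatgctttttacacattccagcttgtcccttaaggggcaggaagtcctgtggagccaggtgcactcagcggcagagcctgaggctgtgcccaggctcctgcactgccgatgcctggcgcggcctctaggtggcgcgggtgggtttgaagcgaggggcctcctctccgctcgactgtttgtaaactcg
Ptch1: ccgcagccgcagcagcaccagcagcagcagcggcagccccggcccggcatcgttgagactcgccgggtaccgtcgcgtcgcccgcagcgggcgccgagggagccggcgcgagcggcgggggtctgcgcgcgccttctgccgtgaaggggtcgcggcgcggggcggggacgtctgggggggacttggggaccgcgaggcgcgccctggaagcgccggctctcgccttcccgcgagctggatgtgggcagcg
Lef1: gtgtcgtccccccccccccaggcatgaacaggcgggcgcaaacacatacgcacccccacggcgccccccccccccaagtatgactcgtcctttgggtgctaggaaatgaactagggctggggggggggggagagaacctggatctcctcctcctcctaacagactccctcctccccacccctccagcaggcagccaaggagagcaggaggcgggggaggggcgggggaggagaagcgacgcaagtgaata

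Shh, the secreted ligand of the Hedgehog pathway (GRCm39, chr5:28661813-28672254, minus strand), had 20.9, 24.8 and 37.3 CPM in Ctrl and 24.6, 32.3 and 56.0 CPM in TKO. Replicate 3 was the highest library of each group, and the groups overlapped. TKO was 1.36-fold of Ctrl (95% confidence interval 0.847 to 2.19), a log2 fold change of 0.44 ± 0.306 (SE) with an edgeR adjusted p of 0.9998 and an unadjusted p of 0.177. Without TKO 3, and with Ctrl 3 kept, the log2 fold change was 0.04 ± 0.246. A fit that blocked on replicate number gave 0.40 ± 0.143 (edgeR adjusted p = 0.498). Exons of Shh overlap the noncoding gene 9530036O11Rik on the opposite strand over 642 bases. The strand setting of the counting is not given in the sources used here, so reads of the 2 genes could be mixed.

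Wnt10b, a Wnt ligand of early placodes (chr15:98668593-98690045, minus strand), had 149, 144 and 163 CPM in Ctrl and 120.4, 134 and 187 CPM in TKO. The lowest and the highest of the 6 values were both in TKO, so the groups overlapped. Its log2 fold change was -0.05 ± 0.171 (SE; edgeR adjusted p = 0.9998) and went to -0.26 ± 0.125 without TKO 3. Its exons overlap Wnt1 on the opposite strand over 489 bases.

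Ptch1, the Shh receptor and a Hedgehog target (chr13:63656142-63721412, minus strand), had 530.4, 571 and 708 CPM in Ctrl and 542, 591 and 807 CPM in TKO. The groups overlapped, with replicate 3 highest in each. The fold change was 1.07 (95% confidence interval 0.799 to 1.44), or 0.10 ± 0.189 (SE) on the log2 scale with an edgeR adjusted p of 0.9998, and without TKO 3 the log2 value was -0.09 ± 0.165. No exon of Ptch1 overlaps an exon of another annotated gene.

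Edar, the receptor of the Eda ligand (chr10:58436611-58511535, minus strand), was the steadiest of the 10. It had 109.6, 114 and 113 CPM in Ctrl and 109, 116 and 123.2 CPM in TKO, which overlap. TKO was 1.04-fold of Ctrl with a 95% confidence interval of 0.865 to 1.24, the narrowest of the 10. On the log2 scale this was 0.05 ± 0.117 (SE; edgeR adjusted p = 0.9998), and 0.01 ± 0.114 without TKO 3. The opposite-strand noncoding gene Gm66493 overlaps 87 exonic bases.

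Gli1, a transcriptional activator and target of the Hedgehog pathway (chr10:127165751-127177865, minus strand), had 137, 121 and 162 CPM in Ctrl and 116, 126 and 186 CPM in TKO. Gli2, the main activating Gli factor of follicle epithelium (chr1:118761858-118982598, minus strand), had 270.1, 211 and 299 CPM in Ctrl and 226, 217 and 378 CPM in TKO. Both genes were highest in TKO 3 and overlapped between groups. The log2 fold change was 0.03 ± 0.194 (SE) for Gli1 and 0.07 ± 0.228 for Gli2, each with an edgeR adjusted p of 0.9998. Without TKO 3 both fell below 0, to -0.21 ± 0.148 and -0.23 ± 0.166. Gli1 exons overlap Arhgap9 over 103 bases and the noncoding Gm47200 over 265 bases, both on the opposite strand.

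Lef1, the DNA-binding partner of β-catenin (chr3:130903919-131018005, plus strand), had 327, 288 and 358 CPM in Ctrl and 361, 364 and 439 CPM in TKO. The lowest TKO value lay just above the highest Ctrl value, so the groups did not overlap. TKO was 1.198-fold of Ctrl (95% confidence interval 0.950 to 1.51), a log2 fold change of 0.26 ± 0.1497 (SE) with an edgeR adjusted p of 0.979 and an unadjusted p of 0.113. Without TKO 3 it was 0.16 ± 0.143. Lef1 overlaps the antisense gene Lef1os1 over 1518 exonic bases, the longest such overlap among the 10.

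Lhx2, a transcription factor of follicle progenitors (chr2:38229293-38259759, plus strand), had 40.0, 34.5 and 40.6 CPM in Ctrl and 33.3, 38.3 and 81.5 CPM in TKO. TKO 3 was far above the other 5 libraries, which lay close together. The log2 fold change of 0.41 ± 0.296 (SE; edgeR adjusted p = 0.9998) went to -0.10 ± 0.147 without TKO 3. Lhx2 exons overlap the noncoding gene Gm75255 on the opposite strand over 222 bases.

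Sox9, a transcription factor of the follicle stem cell lineage (chr11:112673009-112678586, plus strand), had 51.2, 53.7 and 60.9 CPM in Ctrl and 31.2, 45.1 and 85.9 CPM in TKO. The Ctrl libraries lay between TKO 2 and TKO 3, and TKO 1 was the lowest of all 6. Ctrl averaged 55.3 ± 5.05 CPM and TKO 54.1 ± 28.4 CPM (SD, n = 3). The log2 fold change was -0.03 ± 0.304 (SE) with an edgeR adjusted p of 0.9998. Without TKO 3 it was -0.54 ± 0.180, with an unadjusted p of 0.016 and an adjusted p of 0.321 in edgeR, the smallest adjusted p of the 10 genes in that fit. Sox9 exons overlap the noncoding gene BC006965 on the opposite strand over 542 bases.

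Dkk4, the secreted Wnt inhibitor (chr8:23114059-23117563, plus strand), had 14.97, 19.7 and 12.5 CPM in Ctrl and 19.8, 21.1 and 23.0 CPM in TKO. Its groups did not overlap, although Ctrl 2 lay just below TKO 1. TKO was 1.35-fold of Ctrl (95% confidence interval 1.01 to 1.81), a log2 fold change of 0.44 ± 0.188 (SE) with an unadjusted p of 0.043 and an adjusted p of 0.798 in edgeR. Without TKO 3 the value stayed at 0.38 ± 0.205, with an edgeR unadjusted p of 0.097. Dkk4 also missed an unadjusted p under 0.05 in edgeR without Ctrl 1, Ctrl 3 or TKO 2. The same held with sex as a factor and with only genes matched to the annotation. Its smallest unadjusted p in edgeR was 0.0066, without Ctrl 2. Dkk4 was the gene of the 10 for which Ctrl 3 was the lowest library, whereas Ctrl 3 was the highest Ctrl library for 8 of the other genes. Its exons overlap Polb on the opposite strand over 32 bases.

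**Figure D2:**
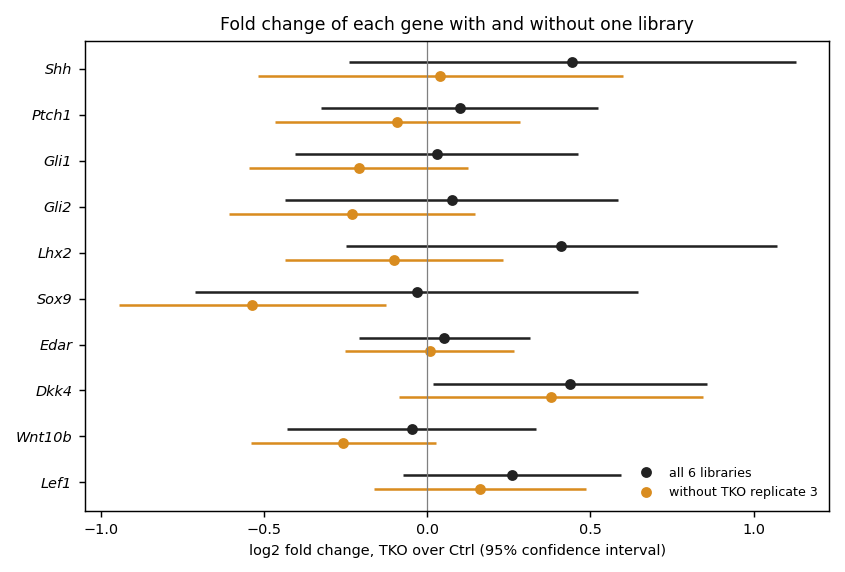
Log2 fold change of TKO over Ctrl (horizontal axis) for each of the 10 genes from the edgeR fit, with 95% confidence intervals, over all 6 libraries (black) and without TKO replicate 3 (orange). With all libraries the interval of Dkk4 alone lies above 0, and without TKO 3 that of Sox9 alone lies below 0, and neither gene passed the adjusted test.

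Levels were compared between genes per kilobase of exon. In Ctrl the genes fell in a high and a low group. The high group held Ptch1 at 41.0 ± 6.33 CPM per kb (SD, n = 3), Lef1 at 34.7 ± 3.76, Gli2 at 32.2 ± 5.59, Edar at 30.3 ± 0.577, Wnt10b at 29.9 ± 2.001 and Gli1 at 27.9 ± 4.13. The low group held Sox9 at 13.2 ± 1.21 CPM per kb, Dkk4 at 12.0 ± 2.77, Shh at 9.71 ± 3.003 and Lhx2 at 7.26 ± 0.631. Gli1 and Sox9 were the only neighbours in this order whose libraries did not overlap, with 24.1 CPM per kb as the lowest Gli1 value and 14.6 as the highest Sox9 value. In TKO the same 6 genes were in the high group and the same 4 in the low group, again with no overlap between the groups at Gli1 and Dkk4. All 10 ranked well up among tested genes on this scale, from percentile 80.3 for Lhx2 to percentile 97.0 for Ptch1. Per kilobase of exon, the receptors and Gli factors were thus above the ligand Shh. The length merges all annotated exons of a gene and can exceed that of any single transcript, so the order between genes is approximate.

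The 10 genes shared a pattern across libraries. TKO 3 was the highest of all 6 libraries for 10 of 10 genes, while it was the highest for 21.3% of all tested genes. Relative to the Ctrl mean, the median of the 10 genes was 0.49 on the log2 scale in TKO 3, -0.18 in TKO 1 and -0.02 in TKO 2. The median of all tested genes stayed between -0.02 and 0.01 in every library. TKO 1 was the lowest TKO library for 9 of the 10 genes, against 31.4% of all tested genes. Within Ctrl, replicate 3 was the highest for 8 of 10 genes, against 34.1% of all tested genes. The genes share libraries, so this is a description of 6 libraries and not of 10 independent measurements. Without TKO 3, and with Ctrl 3 kept, the median log2 fold change of the 10 was -0.10, with 4 genes above 0 and 6 below. Without Ctrl 3, TKO 1 or TKO 2 all 10 were above 0, with medians of 0.21, 0.22 and 0.19. Without Ctrl 1 there were 8 above 0 and 2 below, and without Ctrl 2 there were 6 above and 4 below. TKO 3 also differed from the other libraries in the composition of its counts, as given above, and the part of that difference in these levels was not tested.

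**Figure D3:**
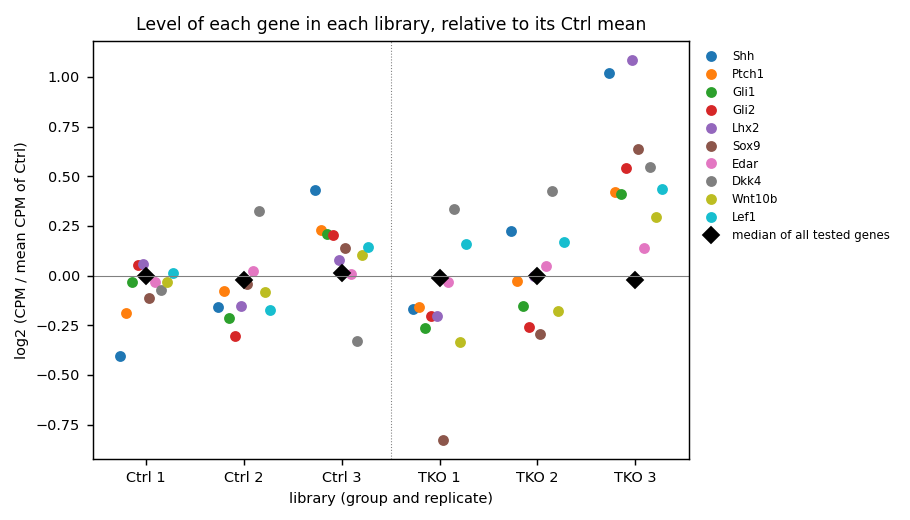
Level of each of the 10 genes in each library as log2 of its CPM over its Ctrl mean (vertical axis), with libraries on the horizontal axis and black diamonds for the median of all tested genes. All 10 genes lie above 0 in TKO 3, where their median is 0.49, while the diamonds stay near 0 in every library.

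The widest ranges over the 6 libraries were those of Sox9 (1.46 on the log2 CPM scale), Shh (1.42) and Lhx2 (1.29), and the narrowest was that of Edar (0.171). For the 3 widest, the 2 tested genes with the most similar profile over the 6 libraries were found by the root mean square difference of centred log2 CPM. They were Gm44036 (0.0786) and Clba1 (0.0832) for Sox9, Nav1 (0.0948) and Ngfr (0.0963) for Shh, and Cox8a (0.0757) and Gm15853 (0.0835) for Lhx2. Gm44036 was between 0.187 and 0.469 CPM and Gm15853 between 0.527 and 1.37 CPM, so their profiles rest on far fewer reads than those of Sox9 and Lhx2.

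The other genes of the same pathways were examined in 4 lists, of which 125 of 128 genes were tested. Of these, 77 had a log2 fold change above 0 and 48 below, with a median of 0.07. edgeR called 0 of the 125, and 8 were higher and 3 lower at an unadjusted p under 0.05, where 4.06% and 2.02% of all tested genes were. DESeq2 called 1 of the 125, Eda2r, against 214 of all 20622 tested genes. Without TKO 3 the balance turned, with 55 of 126 above 0, 71 below and a median of -0.05, and at an unadjusted p under 0.05 there were 7 higher and 16 lower. In that fit 5.65% of all 21573 tested genes were higher and 4.65% lower at the same threshold. TKO 3 was the highest library for 65 of the 125 genes, 52.0%.

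The Hedgehog list held 22 further genes, all tested, and 0 passed even at an unadjusted p under 0.05. Of these 13 were above 0 and 9 below, with a median log2 fold change of 0.03. Smo, the signal transducer under Ptch1, had 77.3, 73.9 and 91.7 CPM in Ctrl and 65.9, 82.2 and 94.5 CPM in TKO. Gas1, a Shh co-receptor, had 253, 238 and 281 CPM in Ctrl and 171, 164 and 297 CPM in TKO. The groups overlapped for both Smo and Gas1, which were chosen after their values were seen.

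The Wnt list had 57 of 59 genes tested, 35 above 0 and 22 below, with a median log2 fold change of 0.10. Those with the smallest unadjusted p were Bambi, Fzd1, Wnt4 and Tcf7l1. Bambi, a pseudoreceptor and Wnt target, had 4.14, 4.96 and 4.05 CPM in Ctrl and 1.61, 1.77 and 2.96 CPM in TKO, a log2 fold change of -1.05 ± 0.323 (SE; edgeR adjusted p = 0.499). Fzd1, a Wnt receptor, had 22.4, 18.7 and 23.5 CPM in Ctrl and 30.7, 39.9 and 25.9 CPM in TKO. The groups of both genes did not overlap, and the edgeR adjusted p of Fzd1 was 0.554. The ligand Wnt4 had 232, 251 and 224 CPM in Ctrl and 169, 175 and 213 CPM in TKO (edgeR adjusted p = 0.747), and its groups did not overlap either. Tcf7l1, a transcription factor of the Lef1 family, had 40.2, 41.0 and 45.1 CPM in Ctrl and 43.5, 55.6 and 77.6 CPM in TKO (edgeR adjusted p = 0.766). Axin2, a direct Wnt target chosen here after its values were seen, had 163, 149 and 187 CPM in Ctrl and 156, 142 and 202 CPM in TKO and overlapped.

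In the Eda and NF-kB list 12 of 18 genes were above 0 and 6 below, with a median of 0.10. Eda2r, the receptor for the other splice form of the Eda ligand and also a known p53 target, had 1.504, 1.69 and 1.42 CPM in Ctrl and 12.6, 33.2 and 4.05 CPM in TKO. All TKO libraries were above all Ctrl libraries, and TKO 3 had the lowest of the TKO values. Its log2 fold change was 3.43 ± 0.643 (SE) with an edgeR adjusted p of 0.148, and 3.89 ± 0.371 with an adjusted p of 0.00782 without TKO 3. Madcam1, an adhesion receptor, had 0.404, 0.255 and 0.705 CPM in Ctrl and 1.003, 1.28 and 1.41 CPM in TKO (edgeR adjusted p = 0.589). The ligand Eda, chosen after its value was seen, had 33.4, 37.0 and 39.9 CPM in Ctrl and 25.7, 27.0 and 40.3 CPM in TKO, with TKO 3 again the highest.

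The list of other placode and follicle epithelium genes had 31 of 32 tested, 20 above 0 and 11 below, with a median of 0.07. It shares Lgr5, Lgr6 and Tcf7l1 with the Wnt list. Krt79, a keratin of the upper follicle, had 24.7, 23.3 and 18.1 CPM in Ctrl and 7.84, 10.5 and 18.3 CPM in TKO, a log2 fold change of -0.85 ± 0.286 (SE; edgeR adjusted p = 0.600). The value of TKO 3 lay at the level of Ctrl 3, and without TKO 3 the change was -1.27 ± 0.210 with an edgeR adjusted p of 0.0521. Cux1, a homeodomain factor, had 143, 127 and 149 CPM in Ctrl and 183, 178 and 174 CPM in TKO. Trps1, a transcriptional repressor of follicle development, had 50.9, 65.5 and 67.4 CPM in Ctrl and 73.0, 77.7 and 90.4 CPM in TKO. Both had all TKO above all Ctrl libraries, with edgeR adjusted p of 0.658 and 0.736.

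**Figure D4:**
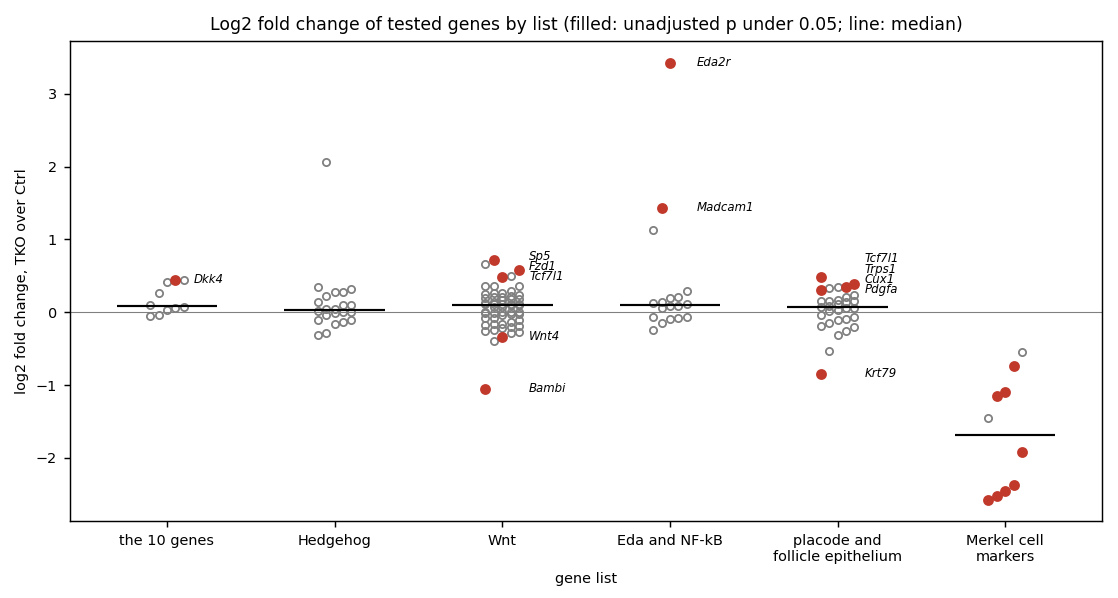
Log2 fold change of TKO over Ctrl (vertical axis) of every tested gene in the 10-gene set, the 4 pathway lists and the Merkel cell markers, filled red at an unadjusted p under 0.05, with a line at each median. The medians of the first 5 lists lie between 0.03 and 0.10, and that of the Merkel cell markers is -1.69.

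Markers of the cell types that the sort could hold were read in the same fit. Basal keratinocyte markers were abundant in every library, summing to 26474, 26594 and 20240 CPM in Ctrl and 17397, 19382 and 21500 CPM in TKO over 12 tested genes. Krt5, the most abundant of them, had 12318, 12051 and 8179 CPM in Ctrl and 6994, 8037 and 9022 CPM in TKO. Suprabasal markers summed to between 19199 and 21020 CPM in Ctrl and between 13046 and 17171 CPM in TKO, led by Krt1. These sums rest on a few abundant keratins: 7 of the 12 basal markers were above 0 and 5 below, with a median log2 fold change of 0.01, and 4 of the 10 suprabasal markers were above 0 and 6 below, with a median of -0.04. edgeR called none of either list with all 6 libraries. At an unadjusted p under 0.05 in edgeR 2 suprabasal and 1 basal markers were lower and 0 higher, against 2.02% and 4.06% of all tested genes. All TKO libraries were below all Ctrl libraries for 2 suprabasal and 1 basal markers, against 5.11% of all tested genes. They were above for 0 suprabasal and 1 basal markers, against 6.35%. The basal keratin Krt15, chosen after its values were seen, had 2716, 2579 and 2089 CPM in Ctrl and 901, 792 and 1573 CPM in TKO, a log2 fold change of -1.18 ± 0.256 (SE; edgeR adjusted p = 0.185). Without TKO 3 it was called, at -1.54 ± 0.182 with an edgeR adjusted p of 0.016. The defining markers of the labelled basal cells were thus present in all 6 libraries, with suprabasal markers beside them.

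Merkel cells are touch-sensing epidermal cells, and their markers had the lowest median of the lists examined. All 10 tested of the 11 were below 0, 8 at an unadjusted p under 0.05 against 2.02% of all tested genes, with a median log2 fold change of -1.69. They summed to 24.0, 27.1 and 27.5 CPM in Ctrl and 10.4, 12.5 and 13.3 CPM in TKO, led by Piezo2, and 8 of the 10 had all TKO below all Ctrl libraries, against 5.11% of all tested genes. edgeR called 0 of them, and DESeq2, which called 214 of all 20622 tested genes, called Isl1, Krt8 and Pou4f3. Here TKO 3 lay with the other TKO libraries and not with Ctrl. Krt20 was not tested and had no reads in TKO 1 and TKO 2.

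Dermal condensate cells lie under the placode and themselves respond to Shh. Their 8 markers, 7 tested, summed to 40.0, 40.0 and 49.1 CPM in Ctrl and 38.8, 35.4 and 66.7 CPM in TKO, led by Cxcr4 at 27.9, 27.9 and 33.8 CPM in Ctrl and 16.49, 16.1 and 48.0 CPM in TKO. Replicate 3 had the highest sum in each group, but in TKO this rested on Cxcr4, without which TKO 3 was not the highest. Of the 7 tested, 3 had a log2 fold change above 0 and 4 below, with a median of -0.15 and a range from -1.10 to 3.05. edgeR called 0 of them. At an unadjusted p under 0.05 in edgeR 1 was higher and 1 lower, against 4.06% and 2.02% of all tested genes. All TKO libraries were above all Ctrl libraries for 1 gene and below for 1, against 6.35% and 5.11%. The list shares Sox2 with the Merkel list, and its defining marker Foxd1 was between 0.199 and 0.371 CPM. Dermal fibroblast markers summed to 1290, 3586 and 3211 CPM in Ctrl and 2286, 2766 and 3011 CPM in TKO, led by Col1a1, and were highest in Ctrl 2, with 0 of 10 called. The study's gate of Epcam+ and α6+ selects epidermal cells, and the part of dermal cells in the levels of the 10 genes was not tested.

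Endothelial markers (led by Cdh5) summed to 26.0, 26.0 and 35.96 CPM in Ctrl and 24.4, 62.4 and 50.6 CPM in TKO, with 0 of 5 called. All 5 had a log2 fold change above 0, with a median of 0.76, and 1 was higher at an unadjusted p under 0.05 in edgeR. Melanocyte markers (led by Kit) summed to 13.8, 17.1 and 22.8 CPM in Ctrl and 18.4, 23.6 and 24.9 CPM in TKO, with 0 of 8 called. Of these 7 were above 0 and 1 below, with a median of 0.38, and 1 was higher at an unadjusted p under 0.05 in edgeR. Immune markers (led by Lyz2) summed to 15.4, 35.0 and 8.999 CPM in Ctrl and 5.69, 56.8 and 13.3 CPM in TKO, with 0 of 5 tested called, 4 above 0 and 1 below, and a median of 0.28. Skeletal muscle markers summed to 4.85, 12.3 and 8.50 CPM in Ctrl and 33.6, 33.1 and 38.1 CPM in TKO, led by Ttn. All 9 had a log2 fold change above 0, with a median of 1.43. Of the 9 genes 3 were higher at an unadjusted p under 0.05, 2 had all TKO above all Ctrl libraries and 1 was called, against 4.06%, 6.35% and 0.131% of all tested genes. This was Myh3, an embryonic myosin heavy chain, at 0.656, 0.758 and 0.501 CPM in Ctrl and 3.87, 3.46 and 4.37 CPM in TKO, a log2 fold change of 2.61 ± 0.336 (SE; edgeR adjusted p = 0.021).

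**Figure D5:**
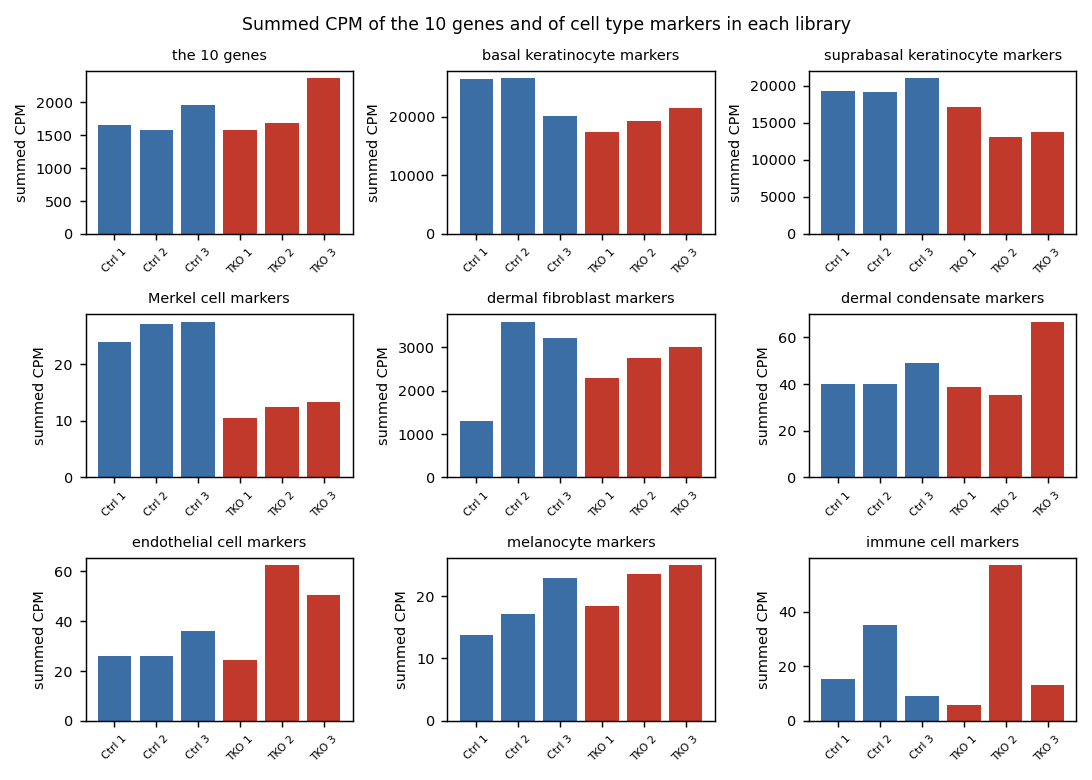
Summed CPM (vertical axes, each from 0) of the 10 genes and of 8 cell type marker lists in each library, Ctrl in blue and TKO in red. Among the sums plotted, those of the 10 genes, the dermal condensate markers and the melanocyte markers are highest in TKO 3. For the dermal condensate markers this rests on Cxcr4 alone. The Merkel cell markers are between 10.4 and 13.3 CPM in all 3 TKO libraries and between 24.0 and 27.5 CPM in Ctrl.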

How the data were processed

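Bulk RNA-seq was analysed for 3 Ctrl and 3 TKO libraries, grouped by their labels. The authors depleted rRNA, trimmed paired-end reads with fastp, used STAR for alignment, and deposited a table of raw read counts for Ensembl genes, neither normalized nor pooled. The methods name GRCm39 and the submitters' processing notes GRCm38. The counting program, annotation and strand setting are not given in the sources used here. Symbols and positions came from GENCODE vM39 on GRCm39, which matched 51477 of 55536 genes, and promoters from RefSeq on GRCm38.p6.

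The counts were fitted with edgeR 4.0.16 under R 4.3.3 (filterByExpr at min.count 10 and min.total.count 15, TMM, glmQLFit robust, glmQLFTest). The biological coefficient of variation was 36.5%. Calls required a p-value below 0.05 after Benjamini-Hochberg adjustment together with a log2 fold change beyond 1 in either direction. DESeq2 1.42.0, RLE scaling, other filters, a replicate block, sex as a factor and each left-out library were alternatives. Scripts were tested on simulated data. A count of 3 was taken as the smallest detectable level.

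The 10 genes and all lists (Hedgehog, Wnt, Eda and NF-kB, placode and follicle epithelium, and cell type markers) were chosen with earlier results of these data known. Named beside the 10 genes and the targeted genes were, per pathway list, up to 4 genes with the smallest unadjusted p under 0.05, per marker list the most abundant gene and any called, and for the 3 genes of widest range the 2 nearest profiles. Outside this rule, Foxd1, the untested Krt20, genes shared between lists and those marked as chosen after their values were seen were also named.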

Additional observations from a re-analysis of the deposited data

How the results depend on the processing

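None of the 10 genes was called by edgeR or DESeq2 under any alternative that kept the adjusted p, and 1 (Dkk4) passed at an unadjusted p with no fold threshold. Of 130 log2 fold changes of the 10 genes under alternatives, 117 kept their direction and 13 did not, and 12 of those 13 came from leaving out a library. Without the low-count filter Gli1 was at -0.0030, where the median of all genes moved to -0.11 from 0.01. Over the fits that left out 1 library, the log2 fold change ran from -0.092 to 0.23 for Ptch1, from -0.21 to 0.15 for Gli1, from -0.23 to 0.21 for Gli2, from -0.10 to 0.64 for Lhx2, from -0.54 to 0.24 for Sox9 and from -0.26 to 0.072 for Wnt10b. The lowest value of each came without TKO 3. Shh ran from 0.041 without TKO 3 to 0.72 without Ctrl 3, and Dkk4 from 0.30 without Ctrl 3 to 0.63 without Ctrl 2.

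Across all genes 27 were called, against 214 with DESeq2 (193 higher, 21 lower), 235 without a filter (213 higher, 22 lower), 9 with at least 10 counts in every library, and 1253 at an unadjusted p with no fold threshold (837 higher, 416 lower). Leaving out 1 library gave between 7 and 81 calls: 7 without Ctrl 2, 8 without Ctrl 1, 8 without Ctrl 3, 15 without TKO 2 and 81 without TKO 3 (65 higher, 16 lower). Of the pathway genes 0 were called, against 1 (Eda2r) with DESeq2, 0 to 1 over the fits without 1 library (1, Eda2r, without TKO 3) and 11 at an unadjusted p. The causes were not tested.

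A replicate block gave 45 calls, 44 of them higher and 1 lower, and none among the 10 genes, of which Dkk4 and Shh passed at an unadjusted threshold. The deviations of same-numbered libraries from their group means correlated across genes by 0.168, 0.087 and 0.127, and each library correlated best with its own number, which is a hint from the data and not from the design. The groups share litters, but neither the labels nor the methods say that a number marks a litter, and 1 of the 3 correlations was under 0.1, so the numbers were not taken to pair the libraries. Fits without TKO 3 keep Ctrl 3. Restricting the table to annotated genes, an alternative chosen after seeing the data, called 0 of the 10 genes. With at least 1351 counts for each of the 10 genes in every library, their error came mainly from the spread between libraries.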
